A study of Mus musculus with 12 samples.

Results

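The 36 genes described here are general neuronal genes and genes of the synapse, most of them presynaptic, measured in neurons grown from mouse embryonic stem cells and in embryonic mouse brain. They were chosen by name from a list. Probes carrying a listed gene name were joined over the 12 arrays, and 1 value per gene was taken from its brightest probe. In the files 35 of the 36 genes stood under their listed name, and Map2, which the files call by an older name, was matched by its transcript accession. All 36 passed the filter on dim probes and were among 25536 genes tested, and the probe used for each was well above background on all 8 culture and all 4 embryonic arrays. Tubb3, Dcx, Elavl3 and the other defining neuronal genes were thus detected in every culture that the labels call neurons. The list divides into 11 early neuronal genes (8 of the cytoskeleton and growth cone, 3 RNA-binding or surface proteins), 20 presynaptic genes (11 of the synaptic vesicle, 5 SNARE proteins and complexins, 4 of the active zone) and 5 postsynaptic genes.

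Newborn neurons assemble neuron-specific tubulins, microtubule-associated proteins and neurofilaments as they extend an axon and dendrites, and many of these genes are switched on as soon as a cell stops dividing. The presynaptic machinery is built later: vesicles are filled with transmitter, tethered by synapsins and RAB3, primed at the active zone by Bassoon, Piccolo, RIM and UNC13 proteins, and fused by the SNARE complex under the control of synaptotagmins and complexins. Both sets of genes are widely used in the forebrain as signs of neuronal identity and of synapse maturation.

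Total RNA was measured on single-colour Agilent arrays with 60 nt probes, 2 arrays for each of 4 culture groups and 1 array for each of 4 tissues, and each sample pooled RNA from 3 sets of experiments. The cultures came from a male 129/Ola stem cell line and were harvested at day 16 in vitro. All 4 groups, controls included, received the WNT inhibitor 53AH (2.5 µM) and the BMP inhibitor LDN193189 (0.25 µM) from day 0. In WiBi_0-11, the isocortical cultures of the labels, both inhibitors ended at day 11, and in WiBi_0-16 at day 16. In CHIR_8-16, the hippocampal cultures of the labels, the inhibitors gave way at day 8 to CHIR, a GSK3 inhibitor that activates WNT signalling, at 3 µM until day 16, although the steps of the protocol add up to a switch 1 day sooner. In CHIR_11-16 the switch came at day 11, and the labels do not give the dose of CHIR there. The 4 arrays with CHIR are called agonist cultures below and the other 4 inhibitor-only cultures. Cortex, hippocampus, ventral telencephalon and midbrain came from E15 embryos of strain Sv129s6, of both sexes. Nothing in the labels ties replicates to separate differentiations, so the tests see only how far these samples vary, and that variation may be technical.

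Values are log2 levels relative to the 75th percentile of the array, so that 0 is the level of that percentile. Levels of different genes cannot be ranked, since each gene was read by its own probe. Per array, 59.1% to 71.2% of spots other than controls exceeded background clearly and 0 were saturated, and 2 arrays per group limit the precision of every value. All replicates numbered 1 shared slide 2 and all numbered 2 shared slide 3, so each comparison was fitted both with slide as a block and with no block, and the deviations of same-slide arrays from their group means correlated over all genes at 0.577 to 0.667 in the 6 pairs of groups. The E15 arrays lay on slide 1.

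No member passed an adjusted p of 0.05 in any comparison when slide was left out of the fit, and 3 of 36 did so with slide as a block, all in the comparison of agonist with inhibitor-only cultures and all lower with agonist: Stx1a, Syn2 and Sv2a. All 3 are presynaptic, but after quantile normalization and in the deposited table none of them passed with the block (adjusted p of 0.0505 to 0.0655 in limma) and the 3 members called were Mapt, Rab3a and Stmn2, of which Mapt and Stmn2 belong to the cytoskeleton. Without the block 0 of 36 members passed there in limma (0.00783% of all genes did) and 15 had an unadjusted p under 0.05 (15.3% of all genes). With the block 3 of 36 passed against 3.33% of all genes (851 of 25536), and 16 had an unadjusted p under 0.05 (22.6% of all genes). The block calls were narrow. They ended when any 1 of the 8 arrays was left out, when arrays were scaled to their median or when dim probes were kept, and between 0 and 3 genes of the whole table passed without one or another array. Most members nonetheless leaned the same way by sign: 27 of 36 were lower with agonist, against 49.9% of all genes. The median log2 difference was -0.25 over the members and 0.00071 over all genes. In bulk RNA such as this, fewer neurons and less of a transcript per neuron cannot be told apart.

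**Figure D1:**
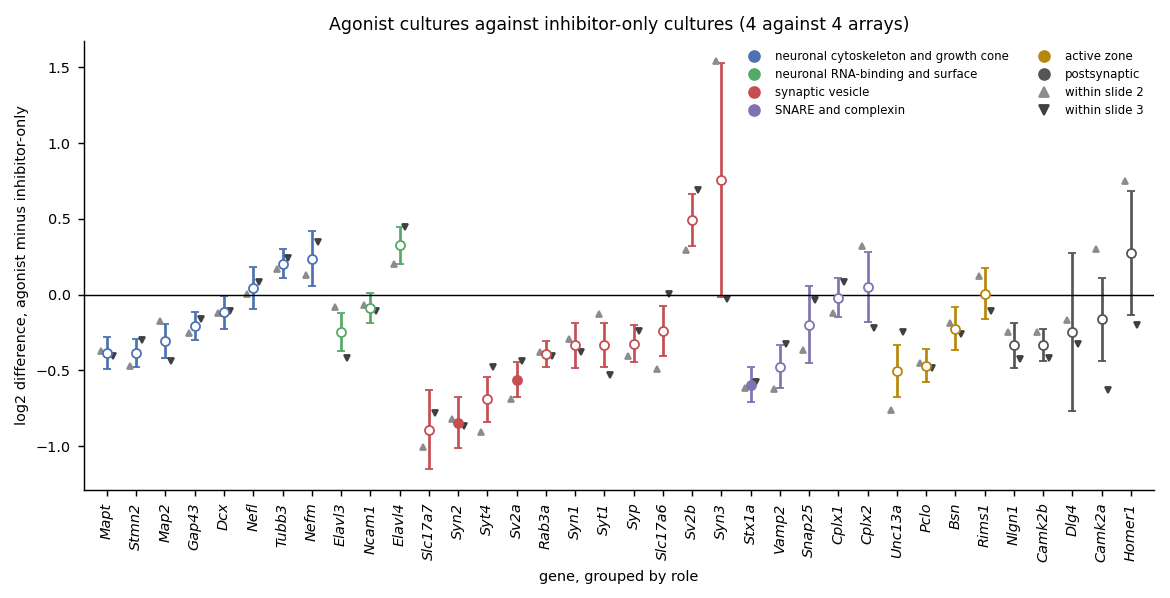
Log2 difference between the 4 agonist and the 4 inhibitor-only arrays for each of the 36 genes (y axis), grouped by role along the x axis, with the standard error of the fit with slide as a block; filled circles passed an adjusted p of 0.05, and triangles give the difference within slide 2 and within slide 3. Filled circles stand at Syn2 (-0.84), Stx1a (-0.59) and Sv2a (-0.56), and 27 of the 36 circles lie below 0.

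The size of the difference by role depended on the scaling. The 11 early neuronal genes had a median difference of -0.12 with 7 of 11 lower, the 20 presynaptic genes -0.33 with 16 of 20 lower, and the 5 postsynaptic genes -0.25 with 4 of 5 lower. Among the presynaptic genes the median was -0.34 for vesicle proteins (9 of 11 lower), -0.35 for the active zone (3 of 4 lower) and -0.20 for SNARE proteins and complexins (4 of 5 lower). Within slide 2 the presynaptic median was -0.39 and within slide 3 it was -0.29, and the early neuronal medians were -0.08 and -0.11. After quantile normalization, after normexp correction and in the deposited table the early neuronal median was -0.33, -0.34 and -0.35, with 8, 9 and 9 of 11 lower, and the presynaptic median -0.35, -0.37 and -0.38, so that the gap between them seen with the 75th percentile was largely gone. Normexp correction, here and below, was itself followed by quantile normalization, so these alternatives are not separate. Whether presynaptic genes differed from early neuronal genes was not tested.

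Among the early neuronal genes 0 of 11 passed. Stmn2, a growth-cone protein that destabilises microtubules, stood at 6.81 and 6.82 in WiBi_0-11 (replicates 1 and 2), 6.75 and 6.84 in WiBi_0-16, 6.27 and 6.57 in CHIR_8-16, and 6.36 and 6.48 in CHIR_11-16. Every agonist array lay below every inhibitor-only array. The difference was -0.39 (SE 0.09 with the block, 1.31-fold lower, n = 4 against 4) and did not pass (limma, adjusted p = 0.061, and 0.15 without the block). After quantile normalization, after normexp correction and in the deposited table it was -0.66, -0.66 and -0.65, and passed with the block in all 3. Against WiBi_0-11, which both comparisons share, it differed by -0.40 in CHIR_8-16 and by -0.40 in CHIR_11-16.

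Mapt, which encodes the axonal microtubule protein tau, and Map2, its dendritic counterpart, had the same arrangement. Mapt lay between 6.58 and 6.86 in the agonist arrays and between 6.95 and 7.17 in the inhibitor-only arrays (log2 -0.39, SE 0.11, adjusted p = 0.087 in limma with the block). Map2 lay between 3.86 and 4.13 against 4.20 to 4.49 (log2 -0.31, SE 0.11, adjusted p = 0.155 in limma with the block). Groups did not overlap for either gene. Mapt was at -0.67, -0.69 and -0.66 after quantile normalization, after normexp correction and in the deposited table, and passed with the block in all 3. Dcx, a microtubule protein of migrating neurons, and Gap43, a membrane protein of growing axons, differed by -0.12 and -0.21, each with overlapping arrays. Gap43 was nonetheless lower with agonist within each slide, by -0.26 on slide 2 and -0.16 on slide 3, and its difference was -0.47 to -0.50 under those 3 alternatives.

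The other cytoskeletal genes lay above 0. Tubb3, the neuronal beta-tubulin used to stain neurons, lay between 6.22 and 6.77 in the agonist arrays and between 6.09 and 6.44 in the inhibitor-only arrays (log2 0.21), and its sign turned under quantile normalization, normexp correction and in the deposited table (-0.07 to -0.08). The neurofilament subunits Nefl and Nefm differed by 0.04 and 0.24, and the sign of Nefl turned under normexp correction and in the deposited table. None of the 3 passed.

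Elavl4, a neuronal RNA-binding protein of the Hu family, was the only member with all 4 agonist arrays above all 4 inhibitor-only arrays. It stood at 2.63 and 2.64 in WiBi_0-11, 2.61 and 2.35 in WiBi_0-16, 2.80 and 3.09 in CHIR_8-16, and 2.83 and 2.79 in CHIR_11-16. The spread came mainly from WiBi_0-16 replicate 2, the lowest array, and CHIR_8-16 replicate 2, the highest. The difference was 0.32 (SE 0.12, 1.25-fold, adjusted p = 0.17 in limma with the block), and a second passing probe gave 0.20. All 4 agonist arrays lay above the others for 6.73% of all genes, so 1 of 36 members is below that share.

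Elavl3, another Hu protein, went the other way at 5.79 and 5.74 in WiBi_0-11, 5.60 and 5.84 in WiBi_0-16, 5.76 and 5.44 in CHIR_8-16, and 5.47 and 5.30 in CHIR_11-16. The 2 CHIR_11-16 arrays and CHIR_8-16 replicate 2 were the lowest, and CHIR_8-16 replicate 1 lay among the inhibitor-only arrays. The difference was -0.25 (SE 0.12, adjusted p = 0.295 in limma with the block). Ncam1, the neural cell adhesion molecule, lay between 6.12 and 6.42 in the 8 cultures and differed by -0.09, and by -0.33 to -0.41 under the same 3 alternatives. Elavl3 stood at -0.41 to -0.44 there.

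Among the synaptic vesicle genes 2 of 11 passed with the block, Syn2 and Sv2a, and both were lower with agonist. Syn2 encodes synapsin II, which ties vesicles to the cytoskeleton, and its probe lies at mm9 chr6:115226390-115226449. It stood at 4.66 and 4.10 in WiBi_0-11, 4.71 and 4.04 in WiBi_0-16, 3.66 and 2.86 in CHIR_8-16, and 4.07 and 3.55 in CHIR_11-16. On both slides CHIR_8-16 was lowest and CHIR_11-16 next, and every array of slide 3 lay below its partner on slide 2, so that CHIR_11-16 replicate 1 overlapped WiBi_0-16 replicate 2. The difference was -0.84 (SE 0.17, 1.80-fold lower, n = 4 against 4, adjusted p = 0.0479 in limma with the block and 0.199 without it), at -0.82 within slide 2 and -0.87 within slide 3. A second Syn2 probe gave -0.59. Against WiBi_0-11 the difference was -1.12 in CHIR_8-16 (SE 0.13, adjusted p = 0.0549 in limma with the block) and -0.57 in CHIR_11-16 (SE 0.13, adjusted p = 0.304).

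Sv2a, a glycoprotein of all synaptic vesicles and the target of the drug levetiracetam, was read by a probe at mm9 chr3:95998499-95998558 and stood at 2.64 and 2.33 in WiBi_0-11, 2.82 and 2.49 in WiBi_0-16, 2.08 and 1.83 in CHIR_8-16, and 2.01 and 2.11 in CHIR_11-16. All 4 agonist arrays lay below all 4 inhibitor-only arrays. The difference was -0.56 (SE 0.12, 1.48-fold lower, n = 4 against 4, adjusted p = 0.0498 in limma with the block and 0.121 without it). Its paralogue Sv2b leaned upward. Sv2b stood at -0.64 and -0.97 in WiBi_0-11, -0.97 and -0.70 in WiBi_0-16, -0.75 and -0.32 in CHIR_8-16, and -0.27 and 0.04 in CHIR_11-16. The 2 CHIR_11-16 arrays were the highest, and CHIR_8-16 replicate 1 lay among the inhibitor-only arrays. The difference of 0.49 (SE 0.17) did not pass (adjusted p = 0.149 in limma with the block).

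The third passing gene, Stx1a, encodes syntaxin 1A, the SNARE protein of the presynaptic membrane, and its probe lies at mm9 chr5:135526477-135526536. It stood at 2.03 and 1.83 in WiBi_0-11, 1.97 and 2.07 in WiBi_0-16, 1.25 and 1.25 in CHIR_8-16, and 1.53 and 1.51 in CHIR_11-16. All 4 agonist arrays lay below the others, and within the agonist cultures both CHIR_8-16 arrays lay below both CHIR_11-16 arrays, by -0.27 (SE 0.13, adjusted p = 0.483 in limma with the block). The difference between agonist and inhibitor-only was -0.59 (SE 0.12, 1.51-fold lower, n = 4 against 4, adjusted p = 0.0471 in limma with the block and 0.0933 without it), at -0.62 within slide 2 and -0.57 within slide 3.

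**Figure D2:**
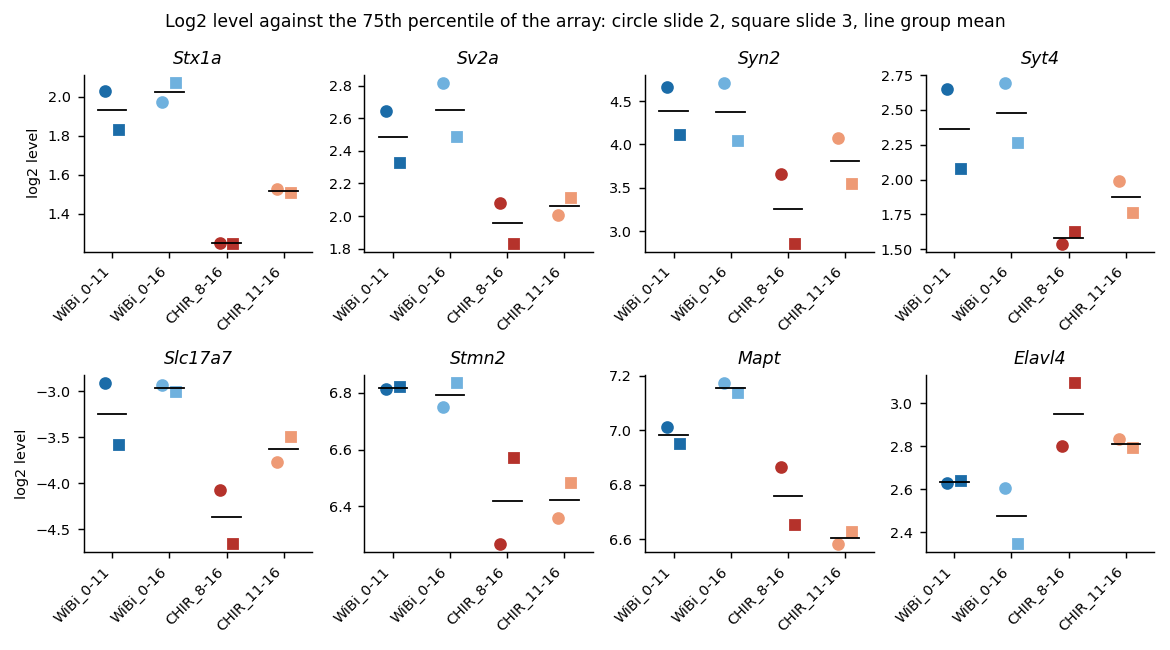
Log2 level relative to the 75th percentile of the array (y axes, each with its own range that does not start at 0) in the 4 culture groups for 8 genes, with a circle for the array on slide 2, a square for slide 3 and a line for the mean of the 2 arrays. For Stx1a the agonist arrays lie between 1.25 and 1.53 and the inhibitor-only arrays between 1.83 and 2.07, whereas for Elavl4 the agonist arrays lie above the others.

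Upstream sequence is shown for these 3 members because they passed together. Each line gives the 250 bases before the gene's start on the plus strand, from RefSeq on GRCm38.p6, with matches to GGGCGG or its reverse complement in capitals, the letters of a GC box, to which SP-family factors bind. The Stx1a window is chr5:135023232-135023481, the Sv2a window chr3:96180977-96181226 and the Syn2 window, the 1 of 2 listed for that gene, chr6:115134652-115134901.
Stx1a: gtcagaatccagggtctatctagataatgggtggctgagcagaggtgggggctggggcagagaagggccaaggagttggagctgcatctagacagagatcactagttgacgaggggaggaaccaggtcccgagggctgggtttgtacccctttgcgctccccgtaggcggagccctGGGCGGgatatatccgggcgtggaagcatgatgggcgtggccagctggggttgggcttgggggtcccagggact
Sv2a: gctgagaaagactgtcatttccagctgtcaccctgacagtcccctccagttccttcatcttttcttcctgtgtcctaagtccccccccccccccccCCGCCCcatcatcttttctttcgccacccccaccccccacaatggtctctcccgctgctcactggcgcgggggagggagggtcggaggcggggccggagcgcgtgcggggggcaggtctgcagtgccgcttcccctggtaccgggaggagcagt
Syn2: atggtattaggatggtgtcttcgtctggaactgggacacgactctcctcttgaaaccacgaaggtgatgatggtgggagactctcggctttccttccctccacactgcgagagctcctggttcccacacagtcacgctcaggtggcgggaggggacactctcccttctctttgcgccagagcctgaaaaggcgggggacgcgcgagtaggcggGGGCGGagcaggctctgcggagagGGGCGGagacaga
The windows of Stx1a and Sv2a each held 1 match and the Syn2 window shown held 2. The other Syn2 window, not shown, held none. Of the 36 members 25 had a window in the table, 40 windows in all, and GGGCGG on either strand lay in 17 of the 40 (42.5%) against 32.7% of all 32851 windows of that length. Member windows held a median of 56.4% G and C, against 52.4% over all windows. CTTTGAA and CTTTGAT, which TCF and LEF factors of the WNT pathway bind, lay in 1 member window each (Unc13a and Sv2b) on either strand, or 2.5% against 4.46% and 3.21% of all windows. CAGCACC, the left part of the RE1 element at which REST silences neuronal genes, lay in 3 (7.5% against 5.73%), those of Nlgn1, Syn1 and Tubb3, and GGACAGC, its right part, in 1 (2.5% against 5.28%), that of Map2. These are letter matches in short windows and were not tested as sites.

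Of the other vesicle genes, 7 of 9 lay lower with agonist and 0 passed, Sv2b and Syn3 being the exceptions in sign. Syt4, a synaptotagmin of dense-core vesicles, lay between 1.54 and 1.99 with agonist and between 2.08 and 2.70 without, with no overlap (log2 -0.69, SE 0.15, adjusted p = 0.0521 in limma with the block). Rab3a, the small GTPase that tethers vesicles, lay between 5.29 and 5.42 against 5.65 to 5.78, again with no overlap (log2 -0.39, SE 0.09, adjusted p = 0.0536 in limma with the block). Differences for Syn1 (synapsin I), Syp (synaptophysin, an abundant vesicle membrane protein) and Syt1 (the calcium sensor of fast release) were -0.34, -0.32 and -0.33. Arrays of both sides overlapped for all 3, although within each slide every agonist array was lower for Syn1 and Syp.

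Vesicular glutamate transporters mark different excitatory neurons. Slc17a7, which encodes VGLUT1 of cortical and hippocampal neurons, stood at -2.91 and -3.59 in WiBi_0-11, -2.92 and -3.00 in WiBi_0-16, -4.07 and -4.66 in CHIR_8-16, and -3.76 and -3.50 in CHIR_11-16. Its CHIR_8-16 arrays were the 2 lowest of the 8, and CHIR_11-16 replicate 2 overlapped WiBi_0-11 replicate 2. The difference of -0.89 (SE 0.26, 1.86-fold) did not pass (adjusted p = 0.0998 in limma with the block). After normexp correction it was -0.48, and the level of -4.66 in CHIR_8-16 replicate 2 lay near the lowest value marked as well above background on that array (-4.95). Slc17a6, which encodes VGLUT2, more typical of subcortical and immature neurons, lay between 2.67 and 3.22 in the 8 cultures and differed by -0.24.

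Of the other SNARE proteins and complexins, Vamp2 (the vesicle SNARE) lay between 4.00 and 4.30 with agonist and between 4.35 and 4.89 without, with no overlap (log2 -0.47, SE 0.14, adjusted p = 0.101 in limma with the block). Snap25, the third SNARE protein, ranged from 4.17 to 5.39 and differed by -0.20, with CHIR_8-16 replicate 1 the highest array. Cplx1, a complexin that clamps the SNARE complex, differed by -0.02, a sign that turned under normexp correction and in the deposited table (0.01 in both).

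At the active zone 0 of 4 genes passed. Pclo, which encodes the giant scaffold protein Piccolo of the release site, stood at 2.67 and 2.34 in WiBi_0-11, 2.77 and 2.49 in WiBi_0-16, 2.34 and 2.08 in CHIR_8-16, and 2.20 and 1.77 in CHIR_11-16. On each slide both agonist arrays lay below both inhibitor-only arrays, and across slides CHIR_8-16 replicate 1 met WiBi_0-11 replicate 2. The difference was -0.47 (SE 0.11, 1.38-fold, adjusted p = 0.0591 in limma with the block), but the 4 passing Pclo probes ranged from -0.47 to 0.09. Unc13a, which primes vesicles, lay between -2.65 and -2.44 against -2.42 to -1.46, with no overlap (log2 -0.50, SE 0.17, adjusted p = 0.143 in limma with the block). Bsn (Bassoon) and Rims1 (RIM1, which recruits calcium channels) differed by -0.22 and 0.01, with overlapping arrays.

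Among the 5 postsynaptic genes Camk2b, a subunit of the calcium/calmodulin kinase of the postsynaptic density, lay between 4.61 and 4.93 with agonist and between 5.06 and 5.30 without (log2 -0.33, SE 0.11, adjusted p = 0.123 in limma with the block). Nlgn1, the adhesion molecule neuroligin 1, stood at -0.10 and 0.39 in WiBi_0-11, -0.36 and 0.39 in WiBi_0-16, -0.73 and -0.19 in CHIR_8-16, and -0.22 and 0.12 in CHIR_11-16. All 4 slide 3 arrays exceeded their slide 2 partners, and agonist and inhibitor-only arrays overlapped (log2 -0.33, SE 0.15, adjusted p = 0.238 in limma with the block). Dlg4, which encodes the scaffold PSD-95, stood at 1.44 and 1.84 in WiBi_0-11, 2.05 and 1.43 in WiBi_0-16, 2.91 and 1.13 in CHIR_8-16, and 0.24 and 1.501 in CHIR_11-16. Its highest and its lowest value were both agonist arrays of slide 2, and its difference of -0.25 had an SE of 0.52. Homer1, a scaffold of the postsynaptic density, and Camk2a, the other kinase subunit, differed by 0.27 and -0.16, with overlap. For Homer1, WiBi_0-16 replicate 1 stood at -0.68 against 1.18 to 1.23 in the other inhibitor-only arrays, and its 5 passing probes ranged from -0.14 to 0.27. A second passing Camk2a probe gave -0.67.

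Across the members, all 4 agonist arrays lay below all 4 inhibitor-only arrays for 10 of 36 against 5.58% of all genes: Syt4, Stx1a, Vamp2, Sv2a, Rab3a, Unc13a, Camk2b, Stmn2, Map2 and Mapt. Within each slide separately, 15 of 36 had both agonist arrays below both inhibitor-only arrays, against 10.6% of all genes, and 2 (Tubb3 and Elavl4) had them above, against 12.3%. The map of the members shows this as blue cells in the agonist columns of both slides.

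**Figure D3:**
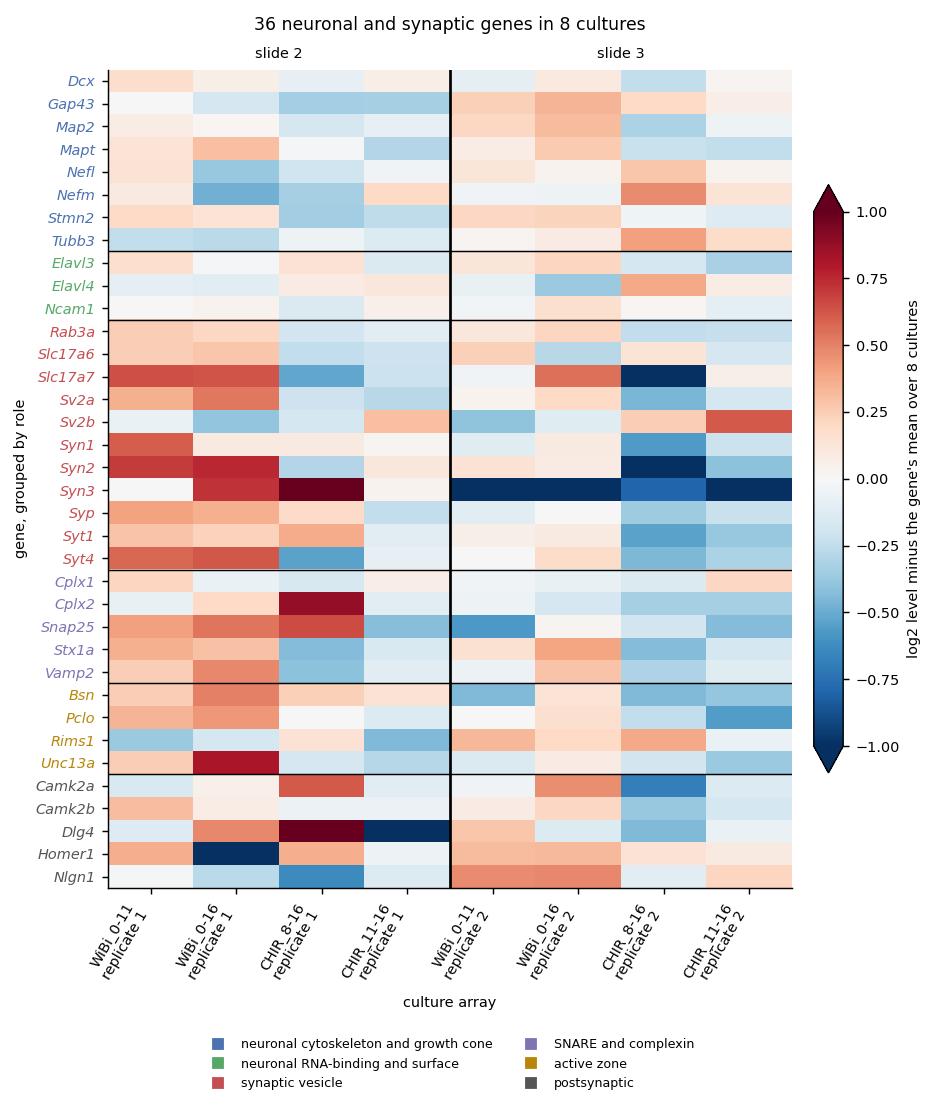
Log2 level of each of the 36 genes (rows, grouped by role and coloured by role on the axis) minus its mean over the 8 cultures, in the 4 arrays of slide 2 and the 4 arrays of slide 3 (columns); red is above and blue below the mean, and the scale ends at 1 and -1. The median over the 20 presynaptic genes is 0.27, 0.39, -0.16 and -0.12 from left to right on slide 2, and -0.04, 0.09, -0.34 and -0.23 on slide 3.

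Each group was also compared on its own. CHIR_8-16 against WiBi_0-11, the hippocampal against the isocortical cultures of the labels, gave 0 of 36 members called by limma without the block (0.0117% of all genes) or with it (0.298%), and 7 and 10 members with an unadjusted p under 0.05 (9.65% and 22.1% of all genes). Of the members 26 were lower in CHIR_8-16, against 44.3% of all genes, with a median of -0.23. Leaving out WiBi_0-11 replicate 1 moved that median to -0.12 without the block. CHIR_11-16 against WiBi_0-11 gave 0 members called without the block (0% of all genes) and with it (0.0117%), 2 and 9 with an unadjusted p under 0.05 (4.73% and 12.5%), and 30 of 36 lower against 51.2% of all genes, with a median of -0.31 that moved to -0.19 without WiBi_0-11 replicate 1 and without the block. Both comparisons share the WiBi_0-11 arrays.

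Longer inhibition without agonist was the next comparison. WiBi_0-16 against WiBi_0-11 gave 0 members called in limma without the block (0%) and with it (0.0117%), 0 and 1 with an unadjusted p under 0.05 (2.65% and 10.8%), and 15 of 36 lower against 50% of all genes, with a median of 0.03. That split turned with scaling, to 23 of 36 lower with arrays scaled to their median (63.4% of all genes) and 10 of 36 after quantile normalization (50.1%). Bsn came nearest to passing, at 0.42 higher in WiBi_0-16 (SE 0.14, adjusted p = 0.439 in limma with the block). For the earlier against the later start of agonist, CHIR_8-16 against CHIR_11-16 gave 0 members called without (0%) and with the block (0.00783%), 0 and 6 with an unadjusted p under 0.05 (3.83% and 11.6%), and 17 of 36 lower against 45.5% of all genes. Syn2 came nearest there, at -0.55 (SE 0.13, adjusted p = 0.29 in limma with the block). A test for any difference among the 4 groups called 0 members in limma without the block (0%) and with it (0.0587%), with 5 and 12 at an unadjusted p under 0.05 (8.92% and 22.9%).

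Scaling moved some of these medians. With arrays scaled to their median in place of the 75th percentile, the median of all genes shifted by -0.13 in CHIR_8-16 against WiBi_0-11 and by -0.16 in CHIR_8-16 against CHIR_11-16. The members lower then numbered 28 of 36 in each, against 58.5% and 66.2% of all genes. The distance of the members from the median of all genes, which such a change of scale cannot alter, was -0.28 in the first and -0.0037 in the second.

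The members also differed between slides. On slide 3 against slide 2, 8 of 36 members differed against 34.2% of all genes (limma, adjusted p under 0.05, 4 arrays against 4). Of the 20 presynaptic genes 18 were lower on slide 3 (39.8% of all genes were), with a median of -0.30, and Syn2 (-0.64), Bsn (-0.57), Pclo (-0.32) and Syn3 (-2.26) passed, while Rims1 passed in the other direction (0.42). Of the 11 early neuronal genes 8 were higher on slide 3, near the 60.2% of all genes, with a median of 0.08, and Gap43 (0.42) and Tubb3 (0.35) passed, as did postsynaptic Nlgn1 (0.53). The median over all genes was 0.11. Slide 2 and slide 3 also differ by replicate number, and the 2 cannot be told apart.

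Syn3 and Cplx2 were read by repeat-like probes, and their values need to be taken with that. Syn3 encodes synapsin III, expressed early in developing neurons. It stood at 0.60 and -0.48 in WiBi_0-11, 1.33 and -0.55 in WiBi_0-16, 4.37 and -0.19 in CHIR_8-16, and 0.63 and -0.89 in CHIR_11-16. CHIR_8-16 replicate 1 stood far above the other 7 arrays, and the difference of 0.76 had an SE of 0.77. The brightest Syn3 probe carries a transcript accession with no RefSeq match here and lies at mm9 chr10:85586568-85586627, while a second passing probe, at chr10:85518277-85518336, carries the RefSeq transcript of the gene. The brightest Cplx2 probe, for the SNARE-binding complexin 2, is also rich in purines. Bases 31 to 60 of the first Syn3 probe and all of the second are shown because they disagreed, with purine runs of 12 bases or more in capitals.
Syn3 brightest probe: AAAGAGAGAGAAAAGGAGAGAGAGAGAcag
Syn3 second probe: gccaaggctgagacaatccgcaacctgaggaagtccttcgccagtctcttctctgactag
The second Syn3 probe read -1.12 and -2.13 in WiBi_0-11, -1.33 and -1.53 in WiBi_0-16, -2.38 and -2.09 in CHIR_8-16, and -2.21 and -1.88 in CHIR_11-16. It had no jump in CHIR_8-16 replicate 1 and was lower with agonist by -0.61. Another Syn3 probe, with 28 purines and no purine run over 5 bases, did not pass the filter on dim probes. That dim probe read -4.41 in CHIR_8-16 replicate 1 and -8.80 to -7.17 on the other 7 culture arrays. It was well above background on 1 culture array. A rise on CHIR_8-16 replicate 1 was thus not limited to the purine-rich Syn3 probe, and its cause was not tested.

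Cplx2 by its brightest probe stood at 7.42 and 7.44 in WiBi_0-11, 7.69 and 7.33 in WiBi_0-16, 8.37 and 7.17 in CHIR_8-16, and 7.38 and 7.16 in CHIR_11-16 (log2 difference 0.05, a sign that turned under quantile normalization, normexp correction and in the deposited table). Of the 5 Cplx2 probes 4 are rich in purines, and 2 of these are placed by the files on another chromosome or far from the gene. The fifth, at chr13:54485200-54485259, has no purine run over 4 bases, read 4.42 in CHIR_8-16 replicate 1 against 5.11 in WiBi_0-11 replicate 1, and was lower with agonist by -0.40. Over the whole array 40 probes with at least 57 purines among 60 bases were well above background in all cultures, the 4 purine-rich Cplx2 probes among them. On CHIR_8-16 replicate 1 all 40 lay above their mean on the other 3 arrays of the slide, by a median of 0.96, while the median over 31060 probes was 0.05. On the other 7 culture arrays the median of the same 40 probes lay between -0.52 and 0.27. Purine runs of 12 bases or more also lay in the probes of Elavl3 (18 bases), Mapt (15) and Syt1 (12). On CHIR_8-16 replicate 1 these genes stood at 5.76, 6.86 and 4.75, each the highest agonist array. Some members whose probes hold no such run, such as Snap25 (5.39) and Dlg4 (2.91), were also highest there among the agonist arrays. What raised the purine-rich probes on 1 array was not tested.

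**Figure D4:**
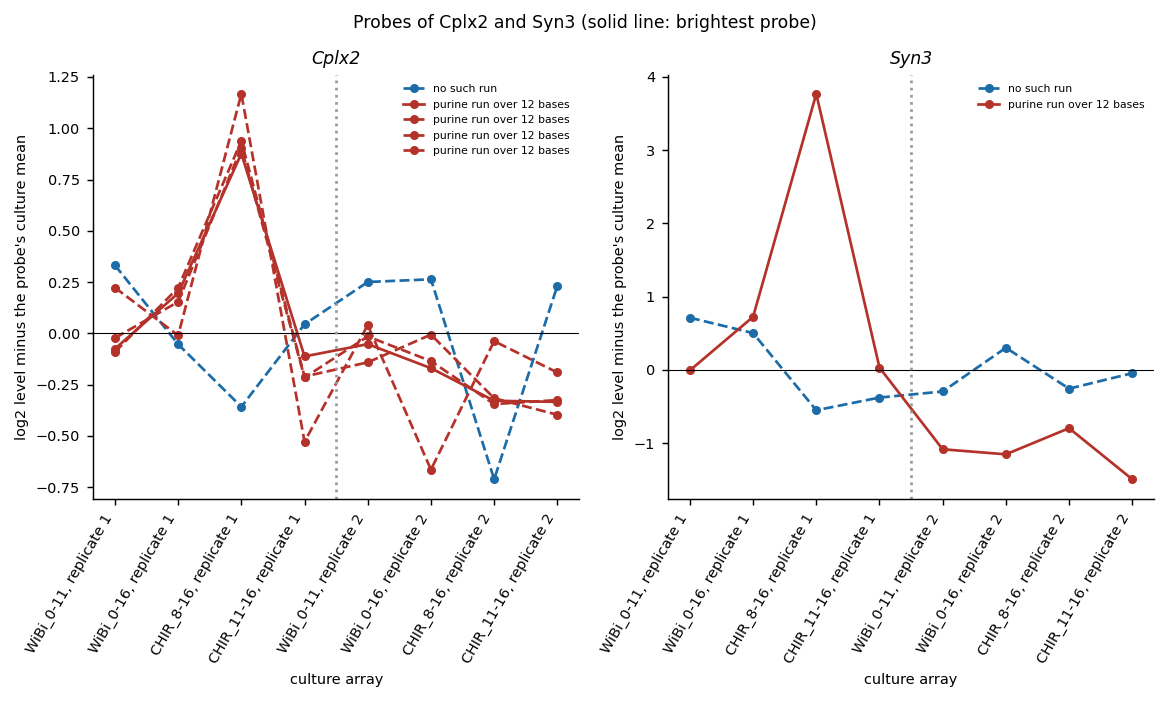
Log2 level of each passing probe of Cplx2 (left) and Syn3 (right) minus its mean over the 8 cultures (y axes) on the 8 culture arrays (x axis), with red for probes that hold a purine run of over 12 bases, blue for the others and a solid line for the brightest probe; lines join the values of 1 probe and the dotted line parts slide 2 from slide 3. The red probes peak on CHIR_8-16 replicate 1 (8.37 for the brightest Cplx2 probe and 4.37 for that of Syn3), where the blue probes do not.

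Of the 13 members with several passing probes, 8 had the same sign for agonist against inhibitor-only on all of them. The exceptions were Cplx2, Syn3, Homer1, Pclo and Rims1.

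Further genes of the same machinery came from a list of 148, of which 146 were tested. In agonist against inhibitor-only cultures 110 of them were lower and 36 higher, while 49.9% of all genes were lower. Without the block 0 passed (0.00783% of all genes), and 43 had an unadjusted p under 0.05 (15.3% of all genes). With the block 9 fell and 2 rose, against 3.33% of all genes in either direction. At the active zone those that fell were Lin7b, an adaptor protein (log2 -0.88), and Rims3, a short RIM protein (-0.89). In the vesicle cycle they were Syt5, a synaptotagmin (-0.81), Rab3d (-0.58) and Synj1, the phosphatase synaptojanin that recycles vesicles (-0.56). On the postsynaptic side they were Lrrtm1, a synaptic adhesion protein (-0.61), and Camk2g, a kinase subunit (-0.55), and among RNA-binding proteins Rbfox1 (-0.78) and Celf4 (-0.49), both splicing or mRNA regulators of neurons. For all 9 every agonist array lay below every inhibitor-only array, as for 5.58% of all genes. They were called on these same arrays, so the lack of overlap adds no support. Doc2b, a calcium sensor of spontaneous release, was lower in CHIR_8-16 than in WiBi_0-11 by 1.62 on the log2 scale, 3.08-fold (adjusted p = 0.0244 in limma with the block), at -2.62 and -2.24 against -0.87 and -0.75. It was the only gene of this list called in that comparison with the block (0.298% of all genes were). In limma without the block 0 of the list were called (0.0117% of all genes), and 29 had an unadjusted p under 0.05 (9.65% of all genes). The most negative gene of each other role there was Nrgn, the postsynaptic calmodulin-binding protein neurogranin (-1.13), Rbfox1 (-0.85), Lin7b (-0.77) and Ptbp2, a neuronal splicing repressor (-0.30). The most positive were Shank2, a postsynaptic scaffold (2.22, at 3.97 on slide 2 and 0.46 on slide 3), Rcor2 (1.09), Synpr, a vesicle membrane protein (0.94), Rimbp2, a RIM-binding protein (0.80), and Prph, the intermediate filament peripherin (0.60). Apart from Doc2b none of these passed there.

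The 2 that rose were regulators of neuronal genes. Rcor2, a corepressor that works with REST and the demethylase LSD1, stood at 4.36 to 4.91 with agonist and 3.11 to 3.74 without (log2 1.12, SE 0.16, 2.18-fold, adjusted p = 0.0385 in limma with the block). Insm1, a zinc-finger factor of newly formed neuronal progenitors, stood at 3.16 to 3.65 against 2.55 to 2.91 (log2 0.67, SE 0.13, adjusted p = 0.0475 in limma with the block). Neither overlapped. Of the other 12 regulators none passed: Rest differed by 0.44 (adjusted p = 0.152) and Ptbp1, which represses neuronal splicing, by 0.64 (adjusted p = 0.0534), both in limma with the block.

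Markers of other cells moved beside these differences in agonist against inhibitor-only cultures, where 3.33% of all genes passed with the block. All 10 markers of dividing cells were higher with agonist (median log2 0.50, 0 called), with a summed linear level, in units of the 75th percentile, of 32.9 to 50.8 in the agonist arrays and 23.8 to 35.99 in the inhibitor-only arrays. Of 10 neural progenitor markers 8 were higher (median 0.39), Prom1 passed (0.56), and the sums were 208 to 361 against 204 to 367. Of 6 astrocyte markers Gja1 (1.52) and S100b (2.75) passed upward with the block and the list's median was 0.04, with sums of 3.05 to 7.88 against 2.36 to 6.85. Of 8 oligodendrocyte-lineage markers 7 were lower and Olig1 passed (-3.85), with sums of 42.0 to 217 against 61.8 to 89.5. The sum of 217 was that of CHIR_8-16 replicate 1 alone, and the other agonist arrays summed to 42.0 to 77.4. Olig1 and Olig2 were at their lowest on CHIR_8-16 replicate 1 (-3.80 and -2.67). Of 8 mesenchyme markers 6 were lower (median -0.59, 0 called), with sums of 2.29 to 7.30 against 5.56 to 13.3. Col3a1 (-1.47 to 0.37 with agonist against 0.66 to 1.88) and Olig2 (-2.67 to -0.06 against 0.17 to 1.42) did pass in at least 1 of the comparisons run. The 6 tested markers of endothelium, blood and microglia summed to 4.14 to 11.2 against 5.66 to 9.53, and the 4 tested pluripotency markers to 1.39 to 6.84 against 1.62 to 8.12, with 0 called in either list. Cdh5 and Cx3cr1 of endothelium and microglia, and Pou5f1 and Zfp42 of pluripotent cells, did not pass the filter. The part of these cells in the members' differences was not tested.

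The E15 tissues show the same genes in brain, each by a single array, so their spread is unknown and nothing was tested. Hippocampus was the lowest of the 4 tissues for 24 of 36 members, against 25.1% of all genes, and the highest for Slc17a7 alone, against 23.3%. Midbrain was the highest for 14 members (25.4% of all genes), cortex for 12 (38.8%) and ventral telencephalon for 9 (12.4%). The neurofilaments were furthest apart. Nefl stood at 3.09 in cortex, -0.19 in hippocampus, 3.32 in ventral telencephalon and 4.99 in midbrain, and Nefm at 1.65, -0.41, 1.13 and 2.11 in the same order. Hippocampus was thus the lowest and midbrain the highest for both, while the cultures lay between 3.82 and 4.48 for Nefl.

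The glutamate transporters divided the tissues. Slc17a7 stood at -1.81 in cortex, -1.47 in hippocampus, -2.17 in ventral telencephalon and -5.94 in midbrain. Slc17a6 stood at 1.44, 1.60, 1.76 and 3.55. Midbrain was thus lowest for the first and highest for the second, and the cultures lay between midbrain and the telencephalic tissues for both, at -4.66 to -2.91 for Slc17a7 and 2.67 to 3.22 for Slc17a6.

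Against the tissues as a whole the cultures overlapped for 32 of 36 members. All 8 culture arrays lay above all 4 tissue arrays for Syn3 and Cplx2 (against 14.5% of all genes), the 2 genes read by the probes richest in purines. They lay below all tissue arrays for Cplx1 and Nlgn1 (against 7.1%). By the second Syn3 probe the cultures (-2.38 to -1.12) also lay above the tissues (-3.34 to -2.53), and by the fifth Cplx2 probe they lay below them (4.07 to 5.11 against 5.32 to 5.72). Cplx1 stood at 1.59 to 1.97 in the cultures and 2.62 to 3.46 in the tissues. Cultures and tissues lay on different slides, so a difference between them cannot be told apart from slide.

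**Figure D5:**
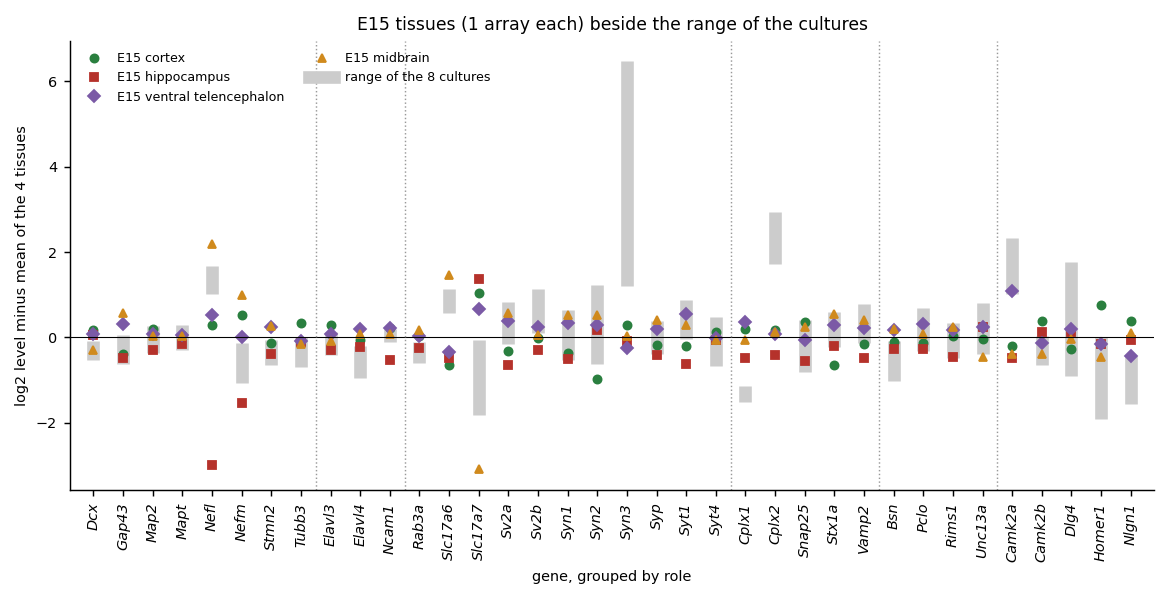
Log2 level of each of the 36 genes in the 4 E15 tissues, 1 array each (points), minus the mean of the 4 tissues (y axis), with the range of the 8 cultures on the same scale as a grey bar; genes are grouped by role along the x axis. Nefl and Slc17a7 have the widest spread between tissues (-0.19 to 4.99 and -5.94 to -1.47 before centring), and the grey bars of Syn3 and Cplx2 lie above all tissues.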

How the data were processed

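RNA of 8 cultures and 4 E15 tissues was measured on 12 single-colour Agilent arrays (design 028005, probe positions on mm9, Feature Extraction 10.7.3.1, per the file headers). The submitters' processing notes name Agilent Feature Extraction 9.1 and limma. The deposited intensity used is the processed signal, which Feature Extraction had already corrected for background, per the file headers; the deposited log2 values of the series were used only as an alternative, and how their background was treated is not given in the sources used here. Their medians per array were 6.19 to 6.24, and each set correlated best with its own array.

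Control spots and outlier flags were left out, spots of one probe were averaged, and log2 of the intensity minus the 75th percentile of the array was taken (percentile values of 629 to 1130 intensity units). Of 55681 probes, 36427 passed the filter, which asks that both arrays of a culture group, for 1 or more groups, mark the probe as well above background and that no culture array mark it as an outlier, and the brightest passing probe stood for each of 25536 genes. Differences were tested with lmFit and eBayes in limma 3.58.1 (R 4.3.3, data.table, version 1.17.8) over the 8 cultures, with Benjamini-Hochberg adjustment over all genes and a threshold of 0.05. Tables and figures were made with Python 3.11.15, pandas 2.3.3, numpy 2.4.6 and matplotlib 3.10.9. Slide and replicate number coincide, and all 6 pairs of groups correlated over 0.1 in their deviations, so the numbers pair the arrays and the fit with slide as a replicate block is given beside the other. On simulated data for agonist against inhibitor-only (25536 genes, 100 changed per size), the fit with the block recovered 66% of genes changed by 1 on the log2 scale and 90% of those changed by 2, and the fit without it 31% and 60%. The fit with the block made 4 false calls and the fit without it 0. No member differed by as much as 1 in that comparison, and smaller changes were not simulated.

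Values of every array are given for members called in either fit, and in each role for the member with the largest difference from WiBi_0-11 in CHIR_8-16 and in CHIR_11-16. Of the further pathway genes, those called and the extremes of each role in CHIR_8-16 against WiBi_0-11 are named. Slc17a7, Syt4, Mapt and other members given by array or range were chosen after their values were seen. The members and lists were chosen with earlier results of these data known. Alternatives were median scaling, quantile normalization, normexp correction (offset 50) followed by quantile normalization, no filter on dim probes and the mean of a gene's probes. Further alternatives were the deposited log2 values, a trended prior, the compared arrays alone and each array left out. Normexp correction used the median signal, since the culture files hold no mean signal. Promoter windows came from RefSeq on GRCm38.p6, and 25 of 36 members had one. The sequence of 1 repeat-like probe is not reported here.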

Additional observations from a re-analysis of the deposited data

Results flagged for a closer look

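In 72 sets of 4 arrays (36 genes, agonist and inhibitor-only arrays apart), 6 held an array whose gap to its nearest neighbour exceeded Dixon's critical share of the set's range, which chance alone exceeds in about 1 set of 20. Cplx1 was high in WiBi_0-11 replicate 1 at 1.97, with the other inhibitor-only arrays at 1.68 to 1.72. Slc17a6 was low in WiBi_0-16 replicate 2 at 2.67, against 3.19 to 3.22. Slc17a7 was low in WiBi_0-11 replicate 2 at -3.59, against -3.00 to -2.91. Homer1 was low in WiBi_0-16 replicate 1 at -0.68, against 1.18 to 1.23, and its other 4 probes had no such dip. Elavl4 stood apart in both sets, at 3.09 in CHIR_8-16 replicate 2 against 2.79 to 2.83 in the other agonist arrays, and at 2.35 in WiBi_0-16 replicate 2 against 2.61 to 2.64 in the other inhibitor-only arrays.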

How the results depend on the processing

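The sign of the median over the 36 members in agonist against inhibitor-only cultures was negative under every alternative run. It was -0.34 after normexp correction and -0.35 in the deposited table, with and without the replicate block, and -0.35 to -0.21 with 1 array left out (-0.35 to -0.22 without the block). In CHIR_8-16 against WiBi_0-11 the median was -0.36 with median scaling and -0.33 to -0.12 with 1 array left out, and in CHIR_11-16 against WiBi_0-11 it was -0.40 to -0.19 with 1 array left out. In WiBi_0-16 against WiBi_0-11 it was -0.066 with median scaling, 0.14 after quantile normalization and -0.05 to 0.11 with 1 array left out. In CHIR_8-16 against CHIR_11-16 it was -0.13 with median scaling and -0.088 to 0.042 with 1 array left out (-0.088 to 0.024 without the block). The cause of these shifts was not tested beyond the shift of all genes given for median scaling.

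With slide as a replicate block, agonist against inhibitor-only called 3 members (Stx1a, Syn2 and Sv2a), against 0 without it. Together with the block the count was 3 after quantile normalization (2.26% of all genes) and 3 in the deposited table (2.14%), Mapt, Rab3a and Stmn2 in both. It was 10 after normexp correction (4.79%), 1 with the mean of the probes (Stx1a, 2.74%) and 9 with a trended prior (8.56%). With 1 mean per group it was 3 (Pclo, Stx1a and Syn2, 4.95%), an alternative chosen after seeing the data, as were all settings joined with the block. The count was 0 with median scaling (0.407% of all genes), without the filter (0%) and with any 1 array left out (0% to 0.0117%), where adjusted p in limma ran from 0.0808 to 0.137 for Stx1a, 0.0716 to 0.134 for Syn2 and 0.0813 to 0.142 for Sv2a. Without the block a trended prior called 2 (Rab3a and Stx1a). In CHIR_8-16 against WiBi_0-11 with the block, median scaling called 1 (Syn2), normexp correction 1 (Syn2) and a trended prior 2 (Stx1a and Syn2), and leaving out 1 array called 0 to 1, the 1 being Syn3 at 3.57 without CHIR_8-16 replicate 2. The test over the 4 groups with the block called 2 after normexp correction (Mapt and Syn2) and 5 with a trended prior (Pclo, Stx1a, Syn2, Syt4 and Vamp2). The block changed no other call. The members' probes were well above background on every array, but Slc17a7 lay near the floor, and normexp correction moved its difference from -0.89 to -0.48 in agonist against inhibitor-only and from -1.12 to -0.66 in CHIR_8-16 against WiBi_0-11.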
